A study of Mus musculus with 2 samples.

Results

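Conventional type 1 dendritic cells (cDC1s) made up 95 of the 11078 quality-filtered CD45+ cells recovered from mouse hearts, with 39 of 5641 cells in the control library and 56 of 5437 cells in the isoproterenol (ISO) library. A cDC1 was a barcode with at least 2 UMIs (unique molecular identifiers, each standing for one captured transcript) summed over Xcr1 and Clec9a and at least 30 summed over H2-Aa, H2-Ab1 and Cd74. It also had at most 3 UMIs of C1qa, C1qb and C1qc, at most 2 each of Ccr7 plus Fscn1, of Siglech and of Cd79a plus Cd79b plus Ms4a1, and 0 of Ncr1. The levels of these genes chose the cells, so their values in the cDC1s are given as a description only.

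The hearts came from female C57BL6 mice 24 hours after an intraperitoneal injection. The ISO group received 200 mg/kg of the beta-adrenergic agonist isoproterenol, a dose used to model takotsubo (stress) cardiomyopathy, and the control group received vehicle. The control label carries the same treatment text as the ISO label, so the control group was taken from its title. CD45+ cells of 3 hearts were pooled into 1 library per group, so there was 1 sample per group, no replicate and no test of treatment. The labels give no age. Dead cells had been removed by sorting. All intervals below are 95% exact Poisson or Clopper-Pearson intervals and cover counting error only, and the limit given with a count of 0 is that of 3 counts.

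cDC1s are the dendritic cell subset that takes up dead cells and presents their antigens to CD8 T cells, a process called cross-presentation. They depend on the transcription factors Irf8 and Batf3 and the growth factor receptor Flt3, recognise dead cells through the F-actin receptor Clec9a, and use the chemokine receptor Xcr1 to meet T cells and NK cells that secrete Xcl1. In the resting heart they form a minor population beside macrophages and type 2 dendritic cells (cDC2s).

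The cDC1s held 551444 UMIs in the control library and 668105 in the ISO library. The median cDC1 held 14330 UMIs and 3390 genes in the control library and 11119.5 UMIs and 2933.5 genes in the ISO library, while the median of all kept cells went the other way, from 4790 to 8537 UMIs. The mitochondrial share of UMIs in the median cDC1 was 2.67% and 1.73%. The libraries shared 15 barcodes, and 0 of these were cDC1s. RNA of macrophages was also found in barcodes chosen as lymphocytes in the ISO library. Its NK cells held 7549 CPM (UMIs per 1000000 UMIs of the summed cells) of a 16-gene macrophage list, against 181 CPM in control NK cells. The NK cell list was at 21243 CPM in control and 6533 CPM in ISO NK cells. The B cell list was at 14635 and 5456 CPM in B cells. The part of mixed barcodes in these groups was not tested, so the NK and B cell level is not a measure of free RNA alone. That level is given beside genes of several kinds, some of which NK or B cells may express themselves, such as Plac8 in control B cells. For those genes a value at or below that level is no sign of RNA from other cells. Gm26924 held 48014 CPM in control cDC1s and 11678 CPM in ISO cDC1s, beside 53618 and 11909.8 CPM in cDC2s.

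Promoters of the genes that define or mark the cells were read from RefSeq (GRCm38.p6), from 250 bases before to 50 bases after each start site. A set of 3 motifs of factors with known roles in these cells were searched on both strands: the interferon-stimulated response element core GAAANNGAA, the Ets-IRF composite GGAANNGAA and the AP-1 site TGANTCA. The first was found in the windows of Clec9a and Ifi205, and none of the 3 motifs was found in those of Xcr1, Wdfy4, Naaa, Flt3, Batf3 or in both windows of Irf8. Over all 32851 windows, 8.56% held GAAANNGAA, 8.24% held GGAANNGAA and 7.81% held TGANTCA. The windows of Xcr1 (chr9:123861980-123862279, minus strand), Clec9a (chr6:129408612-129408911, plus strand) and Ifi205 (chr1:174031706-174032005, minus strand) are shown because Xcr1 was lower, Clec9a near equal and Ifi205 higher in the ISO library, with matches in capitals.
Xcr1: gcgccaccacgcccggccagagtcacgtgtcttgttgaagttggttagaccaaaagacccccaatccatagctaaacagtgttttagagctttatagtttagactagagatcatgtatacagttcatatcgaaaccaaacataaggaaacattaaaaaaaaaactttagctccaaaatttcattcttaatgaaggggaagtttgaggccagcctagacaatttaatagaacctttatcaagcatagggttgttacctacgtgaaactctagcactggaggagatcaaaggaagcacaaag
Clec9a: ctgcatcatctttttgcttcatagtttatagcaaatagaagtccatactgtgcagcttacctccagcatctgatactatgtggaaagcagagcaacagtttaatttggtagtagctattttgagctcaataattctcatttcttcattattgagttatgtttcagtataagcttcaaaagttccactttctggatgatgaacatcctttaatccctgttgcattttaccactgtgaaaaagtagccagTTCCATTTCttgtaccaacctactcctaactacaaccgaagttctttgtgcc
Ifi205: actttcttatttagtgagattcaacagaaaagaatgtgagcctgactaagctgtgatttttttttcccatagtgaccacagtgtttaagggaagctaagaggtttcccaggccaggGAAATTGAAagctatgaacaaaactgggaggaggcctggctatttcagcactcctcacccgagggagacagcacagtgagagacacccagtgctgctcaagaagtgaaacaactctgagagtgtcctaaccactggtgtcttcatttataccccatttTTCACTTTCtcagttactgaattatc
The Clec9a match spanned the start site, from base -2 to base 7. The Ifi205 window held a match at -134 to -126 and another at 25 to 33. A match is a string of letters and shows no bound factor.

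Markers that did not choose the cells were checked first. Wdfy4, which is needed for cross-presentation of cell-bound antigen, was at 707 CPM in control cDC1s (639 to 781) and 407 CPM in ISO cDC1s (360 to 458), against 129 and 68.4 CPM in cDC2s. Naaa, an acid amidase, was at 1763 and 1408 CPM against 169 and 235 CPM in cDC2s. Ifi205, an interferon-inducible PYHIN family gene, was at 522 and 659 CPM against 91.3 and 46.5 CPM, and Flt3 was at 158 and 151 CPM against 101 and 40.5 CPM. Each of the 4 genes was higher in cDC1s than in cDC2s, MHC class II macrophages, monocytes, NK cells and B cells of the same library. Flt3 was higher still, at 221 CPM, in control plasmacytoid dendritic cells (pDCs). All 4 were detected in 29 of 39 control and 40 of 56 ISO cDC1s, and at least 3 in 36 and 51. The sum of the 4 ranged from 138 to 5306 CPM over control cDC1s (median 3326) and from 0 to 6617 CPM over ISO cDC1s (median 2554). It was under 1000 CPM in 2 of 39 control and 8 of 56 ISO cDC1s, so a few of the latter carried the receptor UMIs with little of the remaining programme.

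**Figure D1:**
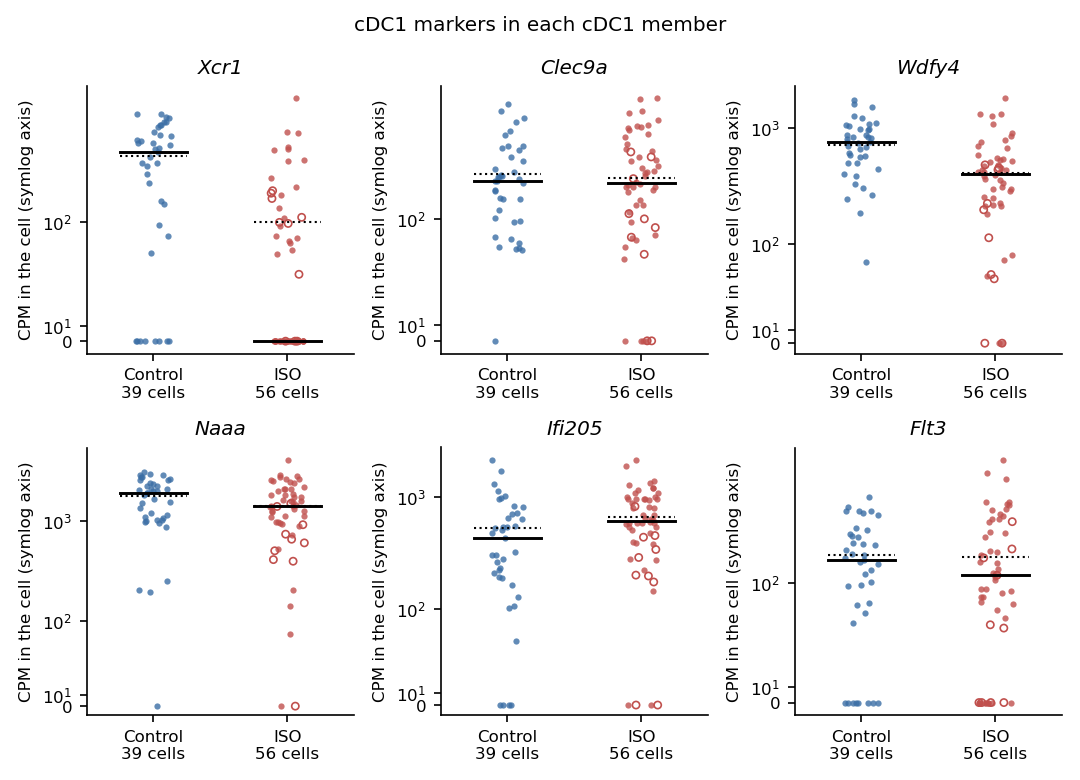
Level of 6 cDC1 markers in each of the 39 control and 56 ISO cDC1s, in CPM of the cell on a symmetric log axis. Solid bars are medians over cells, dotted bars the CPM of the summed UMIs, and hollow circles the 10 ISO cells with at least 1000 CPM of macrophage markers. The median Xcr1 level was 322 CPM in control and 0 in ISO cDC1s, while the Naaa and Clec9a clouds overlapped.

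NK cell, T cell and red cell markers were near 0, and B cell markers were low but present. Ncr1 of the NK cell list was at 0 by the rule, and Cd79a, Cd79b and Ms4a1 of the B cell list were limited by it. That part of these 2 lists was fixed by choice, while the T cell and red cell lists held no gene of the rule. The B cell list held 58 UMIs (105 CPM) in control and 60 UMIs (89.8 CPM) in ISO cDC1s. Ighm, a member of that list, was detected in 16 control and 30 ISO cells, and a single control cell held 43.1% of the control UMIs of the list. NK cell markers totalled 6 UMIs, T cell markers 5 UMIs and hemoglobin 1 UMI over the 39 control cells, and 5, 5 and 0 UMIs over the 56 ISO cells. The macrophage list totalled 218 CPM (180 to 260) in control cells, against 1865 CPM (1763 to 1972) in ISO cDC1s, with Ms4a7, Lyve1 and Folr2 at 0 in the ISO cells. Its median over cells was 154 and 214 CPM. The 12-gene monocyte list was at 695 and 2916 CPM (cell medians 452 and 2158 CPM, with 0 ISO cells at 0), against 5124 and 7808 CPM in ISO NK and B cells, and the 13-gene type 2 dendritic cell list was at 464 and 1156 CPM (cell medians 265 and 500.3 CPM). The former list holds Plac8, Ccr2, Fn1 and Chi3l3 and the latter Cd300a and Ccl17, all described below, and the part of monocyte or cDC2 RNA in their values was not tested. No control cDC1 exceeded 907 CPM, which allows a share of up to 7.69% at or above 1000 CPM, whereas 10 of 56 ISO cDC1s (17.9%, 8.91 to 30.4%) held 1485 to 14430 CPM.

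The 10 ISO barcodes were deeper, with a median of 18079 UMIs against 10581.5 in the other 46. One of them held 89.8% of all neutrophil-list UMIs and 97.7% of the platelet-list UMIs of the ISO cDC1s, and another held 92.4% of the cardiomyocyte-list UMIs. Of the 10-gene neutrophil list, control cDC1s held 87.0 CPM over cells reaching 0 to 608 CPM, and ISO cDC1s 1703 CPM over cells reaching 0 to 51031 CPM. A doublet score (Scrublet) placed 4 ISO and 0 control cDC1s among the top 4.63% and 4.54% of their libraries. Results below are given over all 56 ISO cDC1s and, for the counts and the genes they turn on, over the 46 with under 1000 CPM of macrophage markers (504590 UMIs), a split chosen after the data were seen. The part of mixed barcodes in the differences was not tested beyond this.

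**Figure D2:**
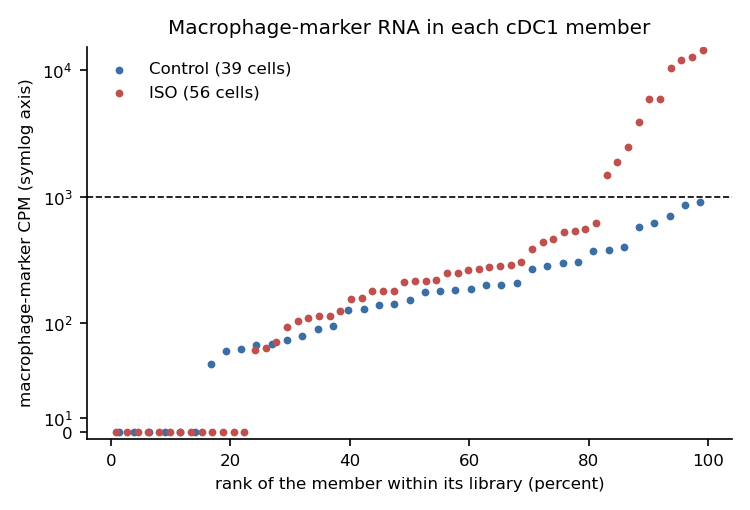
Macrophage-marker RNA (16 genes, CPM of the cell, symmetric log axis) of each cDC1, ordered within its library. The dashed line is 1000 CPM. All 39 control cells lie below it, and 10 of 56 ISO cells lie between 1485 and 14430 CPM.

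In the control library 0.691% of kept cells were cDC1s (0.492 to 0.944%), and in the ISO library 1.03% (0.779 to 1.34%), a ratio of 1.49 whose interval of 0.972 to 2.30 held 1. With the 46 ISO cells alone the log2 ratio was 0.29 in place of 0.58. With cells chosen by Wdfy4, Naaa, Ifi205 and Flt3 in place of the receptors, as described below, the shares were 0.691% and 1.54% and the log2 ratio 1.16. Over the same libraries cDC2s went from 38 cells (0.674%) to 241 cells (4.43%) and pDCs from 14 cells (0.248%) to 54 cells (0.993%). cDC1s and cDC2s were thus near equal in number in the control library, and in the ISO library cDC2s outnumbered cDC1s. With under 1000 CPM of macrophage markers there were 30 control and 161 ISO cDC2s, beside 39 and 46 cDC1s. As a share of cells meeting any of 4 dendritic cell rules, cDC1s were 39 of 184 in the control and 56 of 433 in the ISO library. One of those 4 groups, mature dendritic cells, held B cell RNA in the control library and was not compared further. A share does not tell more cDC1s from fewer cells of other kinds: B cells went from 18.4% to 1.21% of kept cells.

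The share depended on where the receptor threshold lay. At exactly 2 receptor UMIs, the lowest value allowed, stood 9 of 39 control and 27 of 56 ISO cDC1s, and a further 14 control and 67 ISO barcodes missed the rule with 1 UMI. A threshold of 4 UMIs left 26 control and 23 ISO cells, and a threshold of 1 gave 53 and 123. The C1q limit removed 35 control and 22 ISO barcodes that met every other criterion. These held a median of 131 and 51.5 C1q UMIs, a median depth of 23645 and 20091.5 UMIs, and 1184 and 880 CPM of Wdfy4, Naaa, Ifi205 and Flt3. The other limits removed 0 to 11 barcodes each.

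Xcr1 and Clec9a, the receptors used by the rule, parted. Xcr1 was at 299 CPM (255 to 349) in control cells, against 100.3 CPM (77.7 to 127) in ISO cDC1s, or 107 CPM in the 46. Clec9a was at 205 CPM (169 to 246) and 193 CPM (161 to 229), or 222 CPM in the 46. Both receptors were detected in 30 of 39 control cDC1s and 21 of 56 ISO cDC1s, Clec9a alone in 8 and 29, and Xcr1 alone in 1 and 6. The cDC2s, macrophages, monocytes, B cells and NK cells used for comparison were chosen to hold 0 UMIs of both genes, and the pDCs at most 1, so their levels of Xcr1 and Clec9a show nothing about those cells.

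Because the rule selects on these receptors, the cells were also chosen by the 4 markers it did not use. Barcodes with at least 2000 CPM of Wdfy4, Naaa, Ifi205 and Flt3, under 1000 CPM of macrophage markers and all other criteria met numbered 39 in the control and 84 in the ISO library. This choice was made after the data were seen. Xcr1 was detected in 29 of the 39 and 23 of the 84 cells, and stood at 283 CPM (240 to 331) and 64.1 CPM (48.4 to 83.2), a log2 ratio of -2.13 (-2.61 to -1.69). Clec9a was detected in 36 and 59 cells, at 187 CPM (153 to 227) and 144 CPM (120 to 172), a log2 ratio of -0.38 (-0.76 to 0.01). Under this choice, which did not use the receptors, Xcr1 was thus lower in the ISO library, and the Clec9a interval held 0. The receptor levels of cells chosen by the rule are shaped by the rule and do not add to this. Of the 44 ISO barcodes with at least 2000 CPM of the 4 markers but 0 or 1 receptor UMI, 26 had 1 and 18 had 0; the control library had 5 such barcodes.

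**Figure D3:**
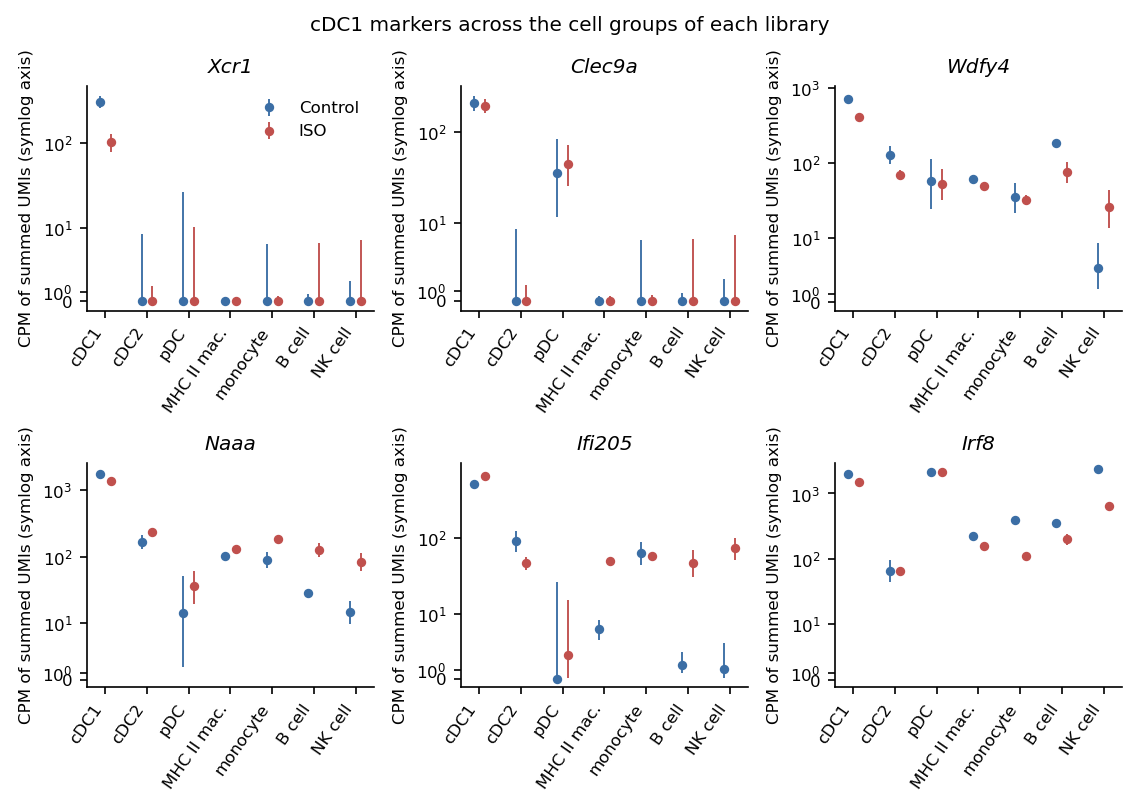
CPM of summed UMIs for 6 genes in 7 cell groups of the control and ISO libraries, with 95% Poisson intervals on a symmetric log axis. Xcr1 and Clec9a chose the cDC1s and are at 0 by choice in the other groups, apart from up to 1 UMI per pDC. Wdfy4, Naaa and Ifi205 did not and were highest in cDC1s in both libraries, while Irf8 was higher in pDCs (2165 and 2121 CPM) and in control NK cells (2364 CPM).

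The first comparison asked which genes differed between ISO and control cDC1s. Of 5976 genes with at least 20 UMIs over both libraries, 655 (11.0%) were at least 2-fold higher and 437 (7.31%) at least 2-fold lower after ISO, and the median log2 ratio was 0.12. Over the 46 cells low in macrophage RNA, 557 of 5530 genes (10.1%) were higher and 480 (8.68%) lower. The sets overlapped unequally: 348 of the 437 lower genes (79.6%) were lower in the 46 cells too, while 33.7% of the 655 higher genes were not higher in them. Of the 655, 333 (50.8%) stood at or below the level of NK or B cells of the ISO library, against 61.8% of all genes tested. Leaving mitochondrial genes, ribosomal protein genes and Gm26924 out of the totals lowered the median ratio to 0.01 and gave 517 higher and 561 lower genes.

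The 10 largest increases over all 56 cells included genes of monocytes, macrophages, neutrophils and platelets. Chi3l3 (a monocyte lectin), Retnlg (a neutrophil resistin), Cxcl1, Il1rn, Arg1 and Ppbp (a platelet chemokine) had 0 UMIs in control cDC1s and were at least 102-fold, 34.7-fold, 31.1-fold, 23.1-fold, 21.7-fold and 19.5-fold higher against a floor of 3 UMIs over the control library. In the 46 cells Arg1 and Ppbp had 0 UMIs, Retnlg was at 1.98 CPM, Chi3l3 at 9.91 CPM, Cxcl1 at 7.93 CPM and Il1rn at 49.6 CPM. Arg1 belongs to the macrophage list that chose the 46 cells. Its value there, and that of genes carried by the same barcodes, is shaped by that choice. Ccl2, Ccl7, Fn1 and Thbs1 had 1 or 2 control UMIs and were at 1066, 293, 307 and 289 CPM over all ISO cDC1s, against 41.6, 3.96, 15.9 and 43.6 CPM in the 46. NK cells of the ISO library held 2960 CPM of Ccl2 and 1452 CPM of Fn1. None of these 10 genes reached 100 CPM in the 46 cells.

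Among the lower genes, Dnase1l3, which encodes a secreted nuclease that digests DNA in microparticles and chromatin (chr14:7964533-7994573, minus strand, GENCODE on GRCm38), had the largest ratio. It was at 248 CPM (209 to 294) in control cells, against 1.497 CPM (0.0379 to 8.34) in ISO cDC1s, with 137 UMIs in 18 of 39 cells against 1 UMI in 1 of 56. The log2 ratio with 0.5 UMI added was -6.80 (counting interval -12.69 to -4.87). A single control cell held 41.6% of the control UMIs. With each cell thinned to 1000 UMIs, 5 of 39 control cDC1s (12.8%) and 0 of 56 ISO cDC1s, which allows up to 5.36%, kept a Dnase1l3 UMI. cDC2s held 0 and 1 Dnase1l3 UMIs, while 17.8% of control and 22.7% of ISO B cells held it.

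Other genes with large decreases were Hepacam2, Cd81, Cadm1, Fam129a, Egr1, Cxx1b, Trf, Rnaset2b and Tnni2. Cadm1, an adhesion molecule of cDC1s that binds Crtam on T cells, was at 190 CPM in 29 of 39 control cells and 25.5 CPM in 10 of 56 ISO cells (log2 ratio -2.87, -3.74 to -2.16, and -2.64 in the 46). Cd81, a tetraspanin, was at 395 and 47.9 CPM (-3.03, and -2.81 in the 46). Hepacam2, an immunoglobulin-like adhesion gene, was at 125 and 10.5 CPM (-3.49, and -3.29 in the 46), and was detected in 27 control and 7 ISO cDC1s. Trf (transferrin) was at 283 and 56.9 CPM, Fam129a (a stress response gene) at 277 and 41.9 CPM, and Rnaset2b (a ribonuclease) at 185 and 41.9 CPM. Cxx1b and Tnni2, the latter a troponin subunit, were at 170 and 31.4 CPM and at 236 and 55.4 CPM. Rnaset2b shares reads with a near-identical copy, so its value is uncertain. All of these stayed at least 2-fold lower in the 46 cells, with log2 ratios of -2.95 for Trf, -2.64 for Fam129a, -2.06 for Rnaset2b, -2.08 for Cxx1b and -2.02 for Tnni2. Lyz2, the lysozyme of macrophages and some dendritic cells, changed sign with the cells counted: it was at 1472 CPM in control cDC1s, 1732 CPM over all ISO cDC1s and 444 CPM in the 46, where the log2 ratio was -1.73 (-1.95 to -1.51), although NK cells of the ISO library held 7928.5 CPM.

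In the 46 cells the larger increases included those of Ccl17, Ifitm1, Cxcl2, Wfdc17, 1600029D21Rik, S100a4, Cd300a, Plac8 and Flot1. Plac8, a small cysteine-rich protein of pDCs and early leukocytes, was at 236 CPM (197 to 280) in 15 of 39 control cDC1s, 1220 CPM (1138 to 1307) in 51 of 56 ISO cDC1s and 1348 CPM in the 46 (log2 ratio 2.51, 2.24 to 2.80). NK cells of the ISO library held 482 CPM and B cells 975 CPM. After thinning to 1000 UMIs, 12.8% of control (4.30 to 27.4%) and 57.1% of ISO cDC1s (43.2 to 70.3%) kept a Plac8 UMI, against 0.75% and 14.5% of NK cells, 38.5% and 53.0% of B cells and 21.1% and 45.6% of cDC2s. The interval of the ISO cDC1s thus held the shares of ISO B cells and cDC2s. Cd300a, an inhibitory receptor, was at 47.2 and 254 CPM against 63.0 CPM in ISO NK cells. S100a4, a calcium-binding protein, was at 85.2 CPM in control and 828 CPM in the 46 ISO cDC1s, below the 2210 CPM of ISO NK cells. Flot1, a membrane raft protein, was at 23.6 and 137 CPM against 80.7 and 104 CPM in ISO NK and B cells. Wfdc17 was at 36.3 and 501.4 CPM against 429 and 452 CPM in those cells, and Ifitm1 at 420.1 CPM against 390 and 379 CPM. Ccl17, a ligand of Ccr4, lay in 1 control and 6 of the 46 ISO cells.

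**Figure D4:**
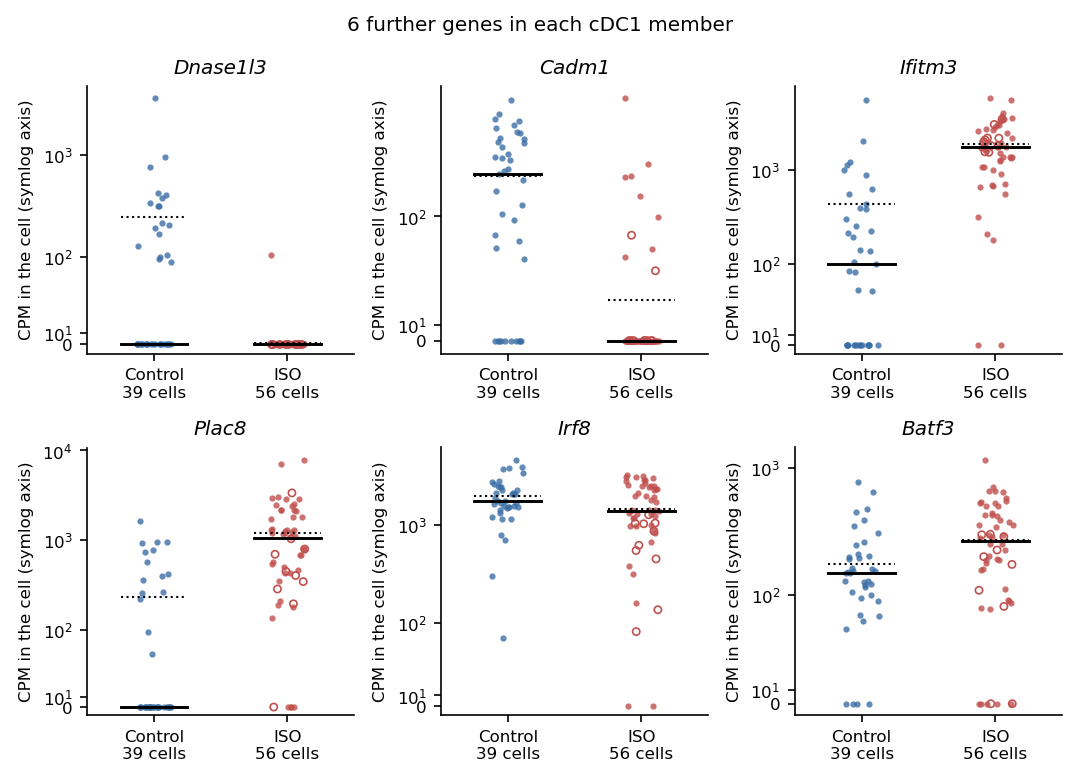
Level of 6 genes that did not choose the cells in each cDC1, in CPM of the cell on a symmetric log axis. Solid bars are medians, dotted bars the CPM of summed UMIs and hollow circles the 10 ISO cells with at least 1000 CPM of macrophage markers. Dnase1l3 was detected in 18 control and 1 ISO cell, and the median Ifitm3 level was 100.2 and 1744 CPM.

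Interferon-induced transmembrane genes, which restrict virus entry and lie in a cluster on chromosome 7, were higher together. Ifitm3 was at 432 CPM (379 to 490) in control cells, against 1862 CPM (1760 to 1968) in ISO cDC1s, Ifitm2 at 258 and 1239 CPM, Ifitm1 at 18.1 and 464 CPM and Ifitm6 at 25.4 and 114 CPM. In the 46 cells their log2 ratios were 2.05, 2.34, 4.47 and 2.14. A single control cell held 33.2% of the control Ifitm3 UMIs, and the gene was found in 24 of 39 control and 54 of 56 ISO cDC1s. NK and B cells of the ISO library held 1582 and 1858 CPM of Ifitm3, close to its level in ISO cDC1s, whereas Ifitm2 in ISO cDC1s stood above the 628 and 777 CPM of those cells. Of the 20 tested interferon-stimulated genes of the list, 7 were higher and 1 lower, and 5 of 18 were higher in the 46 cells: Isg15, Ifit1, Irf7, Ifitm3 and Ly6a. The list medians were 0.29 and 0.49, against 0.12 and 0.13 for all genes. The shares of all genes were 11.0% higher and 7.31% lower over all ISO cells, and 10.1% higher in the 46. Irf7, the master factor of type I interferon induction, was at 27.2, 98.8 and 99.1 CPM in control, all ISO and the 46 ISO cDC1s.

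Of the transcription factors of the lineage, Irf8 was at 1988 CPM (1872 to 2109) in control cells, against 1476 CPM (1385 to 1571) in ISO cDC1s, or 1714 CPM in the 46, and it was detected in 39 of 39 and 54 of 56 cells. Batf3, which sustains Irf8, was at 174 CPM (141 to 213) and 271 CPM (233 to 313), with a log2 ratio of 0.77 (0.39 to 1.16) in the 46. Id2, a repressor required for cDC1s, was at 896 and 826 CPM, and Zbtb46, a factor of conventional dendritic cells, at 76.2 and 43.4 CPM. Of 20 tested dendritic cell transcription factors, 2 (Nfil3 and Zeb2) were at least 2-fold higher over all ISO cells, 0 over the 46, and 0 lower in both, near the 11.0% of all genes that were higher. The counting interval lay above 0 for 5 of the 20 and below 0 for 5. The share of all genes with an interval clear of 0 was not taken. Such counts, here and for the lists below, are thus a description only. Among growth factor receptors Kit was lower (67.1 and 28.4 CPM), and Csf1r was higher over all ISO cDC1s (27.2 and 68.9 CPM) but at 29.7 CPM in the 46.

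cDC1 surface markers and uptake receptors were on the low side. Of 16 tested, 5 were at least 2-fold lower (Cadm1, Cd36, Tlr3, Tlr11 and Cd207) and 1 higher (Axl), with a median of -0.53. In the 46 cells the same 5 were lower, 0 higher, and the median was -0.42 over 14 genes. The shares of all genes were 7.31% lower and 11.0% higher over all ISO cells, and 8.68% and 10.1% over the 46. Cd36, a scavenger receptor for dead cells and lipids, was at 232 CPM (194 to 276) in control cells, against 73.3 CPM (54.3 to 97.0) in ISO cDC1s. Tlr3, the endosomal sensor of double-stranded RNA, was at 187 CPM (152 to 226) and 65.9 CPM (47.9 to 88.4), and was detected in 32 of 39 and 26 of 56 cells. Tlr11, a sensor of microbial profilin, was detected in 12 and 3 cells and Cd207 (langerin) in 12 and 1. Itgae, the CD103 integrin chain, was at 180 and 92.8 CPM (log2 ratio -0.95, and -0.69 in the 46). Btla (123 and 145 CPM) and Cd24a (455 and 503 CPM) lay close together. Axl was at 5.44 and 35.9 CPM, below the 43.3 CPM of ISO NK cells.

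Of 19 tested genes of cross-presentation and uptake, 3 were at least 2-fold higher over the 46 cells (Ifi30, Sec22b and Calr) and 0 lower, with a median of 0.43, against 10.1% and 8.68% of all genes in these cells. Ifi30, the lysosomal thiol reductase GILT, was at 332 CPM (286 to 384) in control cells, against 1537 CPM (1445 to 1634) in ISO cDC1s, above the 640 and 725 CPM of ISO NK and B cells, and it was detected in 37 of 39 and 56 of 56 cells. Sec22b, a SNARE of the ER to phagosome route, was at 23.6 and 55.4 CPM, and the ER chaperone Calr at 662 CPM, 1217 CPM over all ISO cDC1s and 1326 CPM in the 46. Rab43, a GTPase of cross-presentation, was at 471 and 269 CPM. Of 18 tested MHC class I genes 2 were at least 2-fold lower and 0 higher, against 7.31% and 11.0% of all genes, and the counting interval lay below 0 for 8 and above 0 for 4. Psmb8, an immunoproteasome subunit, was at 1034 and 1852 CPM with a log2 ratio of 0.84 (0.70 to 0.99). B2m was at 1318 and 801 CPM, H2-D1 at 1623 and 1251 CPM and H2-K1 at 919 and 730 CPM, and the list median was -0.28, or -0.19 in the 46 cells. The non-classical genes H2-Q6 (49.0 and 5.99 CPM) and H2-Q7 (143 and 58.4 CPM) passed 2-fold. Reads of these near-identical genes can be split between copies, so their values are uncertain. The class II genes of the rule totalled 45799.8 CPM in control and 37768 CPM in ISO cDC1s. Of 10 tested class II pathway genes outside the rule, 2 were higher (Ctss and Lgmn, both at or below the NK or B cell level) and 2 lower (H2-Oa and H2-Ob), and in the 46 cells 0 were higher and 1 (H2-Oa) lower. H2-DMa was at 1222 and 1016 CPM, and H2-Oa and H2-Ob, the subunits of its inhibitor, were at 49.0 and 21.0 CPM and at 180 and 85.3 CPM. Of 11 tested costimulatory and checkpoint ligands 0 passed 2-fold in either direction, among them Cd86 (308 and 243 CPM) and Cd274 (18.1 and 34.4 CPM).

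Secreted mediators depended most on the cells counted. The shares of all genes were 11.0% higher and 7.31% lower over all ISO cells, and 10.1% and 8.68% over the 46. Over all ISO cDC1s 12 of 15 tested chemokines were at least 2-fold higher, 11 of the 12 at or below the NK or B cell level, and the list median was 4.35. In the 46 cells 5 of 9 were higher, 2 lower, and the median was 1.19. Ccl22, a ligand of Ccr4, was lower under both (88.9, 16.5 and 13.9 CPM), and Cxcl16, a scavenger receptor and ligand of Cxcr6, was at 390, 201 and 170 CPM. Of 10 tested cytokines 6 were higher and 1 lower, all 6 at or below the NK or B cell level, and the median went from 1.70 over all ISO cells to -0.16 over 6 genes in the 46. Il1b was at 1356 CPM in control cDC1s, 4474 CPM in ISO cDC1s and 3068 CPM in the 46, against 6998 and 10082 CPM in ISO NK and B cells. Tnf was at 414, 383 and 125 CPM. Il12b and Il12a, the subunits of interleukin 12, had too few UMIs to be tested.

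Migration receptors and innate sensors gave smaller counts in the 46 cells. Of 15 tested chemokine and migration receptors 3 were higher and 3 lower, beside 11.0% and 7.31% of all genes. In the 46 cells 2 of 13 were higher and 2 lower (Itga4 and Ltb4r1), beside 10.1% and 8.68% of all genes. Ccr2, the receptor for Ccl2, was at 392 and 437 CPM, and Itga4, the alpha chain of VLA-4, at 151 and 64.4 CPM. Of 11 tested sensors 7 were higher, 5 of them at or below the NK or B cell level, and 3 of 10 were higher in the 46. Tmem173 (STING), the adaptor for cytosolic DNA, was at 39.9 CPM in 15 of 39 control cells and 106 CPM in 41 of 56 ISO cells, above the 41.3 and 48.5 CPM of ISO NK and B cells, with a log2 ratio of 1.602 (0.90 to 2.40) in the 46.

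Of 13 tested glycolysis genes 6 were at least 2-fold higher and 0 lower, 5 of the 6 at or below the NK or B cell level, and 4 of 12 were higher in the 46 cells, with medians of 0.97 and 0.80, against 11.0% of all genes higher over all ISO cells and 10.1% over the 46. Ldha, which makes lactate, was at 337 and 888 CPM against 813 CPM in ISO NK cells, and Pkm, the last enzyme of the pathway, at 287 and 820 CPM against 1190.5 CPM. Of 65 tested nuclear genes of the respiratory chain 3 passed 2-fold, a smaller share than that of all genes. The counting interval lay above 0 for 42 of the 65 and below 0 for 1, with no share of all genes to set beside it. The list median was 0.46, or 0.50 in the 46 cells. The 76 tested ribosomal protein genes had 0 past 2-fold and a median of -0.01. Of 8 tested hypoxia genes 3 were higher over all ISO cells, all 3 at or below the NK or B cell level, and 1 was higher (Hilpda) and 1 lower (Bnip3l) in the 46, with medians of 0.86 and 0.53.

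Immediate early genes, which also respond to tissue digestion, were lower in part. Of 31 tested 6 were lower and 2 higher, beside 7.31% and 11.0% of all genes. In the 46 cells 8 were lower and 1 higher, beside 8.68% and 10.1% of all genes. Egr1 was at 948 CPM in 26 control cells and 175 CPM in 20 ISO cells, and at 95.1 CPM in the 46 (log2 ratio -3.30, -3.78 to -2.89). Fosb was at 372 and 100.3 CPM, Jun at 872 and 407 CPM, and Btg1, an antiproliferative gene, at 1362 and 594 CPM, while Fos was at 1133 and 1060 CPM. Of 14 tested adrenergic and cAMP response genes 3 were lower (Nr4a1, Nr4a3 and Rgs2) and 1 higher (Areg, with 98.2% of its ISO UMIs in 1 cell), with a median of -0.43, and -0.58 in the 46. Nr4a1, an orphan nuclear receptor induced by cAMP and antigen signals, was at 756 and 361 CPM, Nr4a3 at 375 and 94.3 CPM, and Rgs2 at 506 and 235 CPM. Of 15 tested glucocorticoid response genes 3 were higher (Fkbp5, Thbd and Lcn2, 2 of them at or below the NK or B cell level) and 0 lower, and the counting interval lay below 0 for 5. In the 46 cells 2 of 14 were higher (Fkbp5 and Thbd) and 1 lower (Nr3c1). The list median was 0.01 over all ISO cells and -0.26 in the 46. Lcn2 had 0 control UMIs and was at 73.3 CPM over all ISO cDC1s and 1.98 CPM in the 46. Fkbp5 was at 23.6 and 61.4 CPM and Tsc22d3 was at 209 and 109 CPM.

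Cells in division were few in both libraries. At least 10 UMIs over 12 mitotic genes were found in 2 of 39 control (5.13%, 0.627 to 17.3%) and 4 of 56 ISO cDC1s (7.14%, 1.98 to 17.3%). The corresponding counts in cDC2s were 2 of 38 and 2 of 241. Of 22 tested proliferation genes 1 (Mcm3, a subunit of the replication helicase) was at least 2-fold higher and 0 lower, with a median of 0.16. In the 46 cells 5 of 22 were higher (Birc5, Cdk1, 2810417H13Rik, Mcm3 and Mcm6) and 0 lower, with a median of 0.45. The shares of all genes were 11.0% higher and 7.31% lower, or 10.1% and 8.68% in the 46, with medians of 0.12 and 0.13. Mki67 was at 70.7 CPM in control and 40.4 CPM in all ISO cDC1s. Of 18 tested survival genes Birc3, an inhibitor of apoptosis, was lower (178 and 70.3 CPM), and Cflar was higher over all ISO cDC1s but not in the 46. Lysosomal proteases went from 5 higher of 15 over all ISO cells (median 0.69) to 2 of 14 in the 46 (median 0.11), where Ctsh (198 and 404 CPM) and Ctsd (12.7 and 33.7 CPM) remained.

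**Figure D5:**
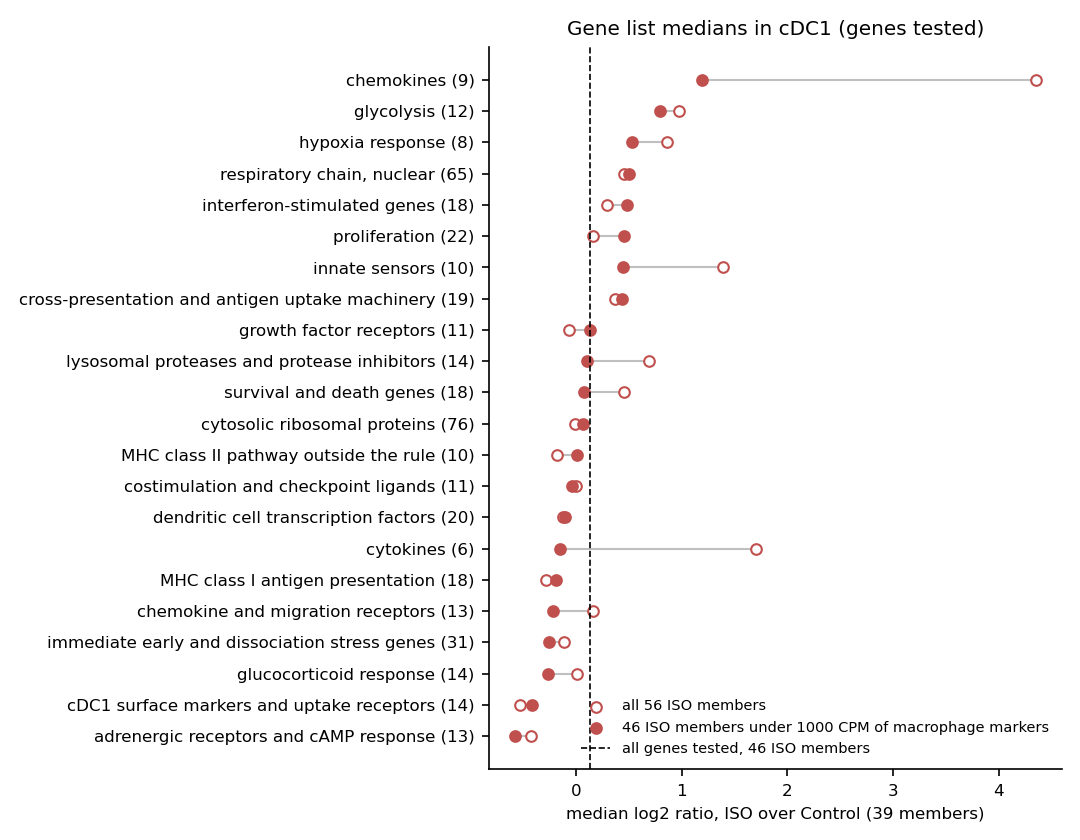
Median log2 ratio of ISO over control for 22 gene lists in cDC1s, over all 56 ISO cells (hollow) and over the 46 with under 1000 CPM of macrophage markers (filled), with the number of genes tested in the 46 cells in brackets. The dashed line is the median of all genes, 0.13. Chemokines move from 4.35 to 1.19 and cytokines from 1.70 to -0.16, while respiratory chain and cDC1 surface lists move by little.

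The second comparison asked how cDC1s differed from cDC2s, cells with at least 2 Cd209a UMIs, 0 Xcr1 and Clec9a UMIs and the other criteria of the cDC1s. Of 5377 genes tested in both libraries 152 (2.83%) were at least 2-fold higher and 210 (3.91%) at least 2-fold lower in cDC1s in both. By size the higher genes outside the rule were led by Irf8 (log2 ratio 4.90 in the control and 4.51 in the ISO library), Sept3 (161 and 130.2 CPM against 0 and 11.4 CPM in cDC2s), 5430435G22Rik (the file name for Rab7b; 3.90 and 2.99), Stmn1 (3.21 and 2.99), Ppt1 (4.38 and 2.81), Cst3 (2.77 and 2.78), Naaa (3.38 and 2.58) and Ifi205 (2.50 and 3.82). Cst3, the secreted cysteine protease inhibitor cystatin C, was at 25457 and 25192 CPM in cDC1s against 3742 and 3668 CPM in cDC2s. Ppt1, a lysosomal thioesterase, was at 704 and 412 CPM against 32.8 and 58.7 CPM, and Stmn1, a microtubule destabiliser, at 140 and 105 CPM against 14.04 and 13.1 CPM. Stmn1 was detected in 9 of 39 control and 13 of 56 ISO cDC1s, and 1 control cell held 50.6% of the control UMIs. The lower genes were led by the lectins Mgl2 (1.81 and 4.49 CPM against 433 and 235), Cd209d and Clec10a, by Cd209a, which chose the cDC2s, and by Tmem176a (14.5 and 43.4 CPM against 384 and 278).

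Several differences between the libraries were shared by cDC2s and others were not, by the values side by side. With macrophage RNA limited in both cell types (39 and 46 cDC1s, 30 and 161 cDC2s), the log2 ratio of ISO over control was 4.47 in cDC1s and 4.72 in cDC2s for Ifitm1, 2.51 and 2.22 for Plac8, 2.28 and 1.17 for Ifi30, 2.05 and 1.23 for Ifitm3, 2.49 and 3.44 for Flot1 and 1.39 and 1.32 for Ldha. Egr1 gave -3.30 and -1.32, Trf -2.95 and -1.76, and Cd81 -2.81 and -1.33. Id2 gave -0.04 in cDC1s and 2.34 in cDC2s, and Naaa -0.12 and 0.70. With 1 library per group none of these differences was tested.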

How the data were processed

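CD45+ heart cells were profiled with the 10x Genomics 3' V3 kit. Per the submitters' processing notes the authors used bcl2fastq 2.19.1.403, UMI-tools 1.0.0, STAR 2.7.3a and featureCounts 1.6.4 with build mm10. The deposited values are whole-number UMI counts per gene and cell, not normalised. UMI collapsing removes PCR copies but not free RNA, which enters every droplet. Barcodes with over 500 and under 6000 genes and under 25% mitochondrial UMIs were kept, as in the study. The members, gene lists and comparisons were chosen with earlier results of these data known. UMIs were summed per library and cell group, scaled to CPM, and compared as log2 ratios with 0.5 UMI added, for genes with at least 20 UMIs. Ratios have exact conditional binomial intervals at 95%. With 1 library per group there was no test, and a gene was counted as higher or lower past 2-fold. Genes named for size were the 10 most changed in each direction that reached 100 CPM and 30 UMIs in one library, also over cells low in macrophage RNA. Further genes were named from the lists or after their values were seen. Shares of cells were also taken after thinning each cell to 1000 UMIs. Doublets were scored with Scrublet (scanpy 1.11.5) and kept. The calculations were checked on simulated data (numpy 2.4.6, scipy 1.17.1). RefSeq synonyms matched older symbols. Other scalings, thresholds and cell choices were tried. Some genes that met the naming rule are not reported here.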

Additional observations from a re-analysis of the deposited data

Results flagged for a closer look

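Only genes named for the size of a change or of a difference between cDC1s and cDC2s were searched. For 7 of these the ratio of ISO over control went one way in cDC1s and the other way in cDC2s, with both counting intervals clear of 0. The share over all genes was not taken. S100a9, S100a8 and 1600029D21Rik were among the genes named because their ratios differed most between the cell types, so their place here follows in part from that choice. The difference between the cell types was not tested, since each library stands alone. The log2 ratio in cDC1s minus that in cDC2s was 7.30 for S100a9 and 7.23 for S100a8, both neutrophil genes, of which 1 ISO barcode held 96.7% and 96.2% of the cDC1 UMIs. In the 46 cDC1s and in the cDC2s low in macrophage RNA the S100a9 ratios were 1.62 and -2.85. The difference was 6.15 for 1600029D21Rik, where both ratios were positive in the cells low in macrophage RNA (3.70 and 2.46). It was 1.99 for Tmem176a and 1.32 for Ifi205, and Ifi205 was likewise positive in both cell types low in macrophage RNA (0.56 and 0.70). It was -0.80 for Naaa and -1.57 for Ppt1, and both had opposite signs in those cells (Naaa -0.12 and 0.70, Ppt1 -0.48 and 0.77). Ratios in the cells low in macrophage RNA were not required to have intervals clear of 0, and that of Naaa in cDC1s was small.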

How the results depend on the processing

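With 1 library per group, no library could be left out and counting intervals do not cover differences between mice. No paired analysis was possible because each group had 1 library and the labels carry no replicate numbers. The log2 ratio of the cDC1 share lay within the main counting interval of -0.04 to 1.20 under 12 of 15 alternatives. That interval is wide and held 0, so a value within it does not show a stable size or sign. The log2 ratio of the share was 1.27 with a threshold of 1 receptor UMI, -0.12 with 4, and -0.71 as a share of cells under the 4 dendritic cell rules. It was 1.16 in cells chosen by Wdfy4, Naaa, Ifi205 and Flt3. Counts of higher and lower genes were 2729 and 2583 with no minimum, 320 and 196 with at least 50 UMIs, and 1299 and 1061 after thinning each cell to 2000 UMIs. With at least 4 receptor UMIs 411 genes were higher. Median of ratios scaling gave 603 and 489. The cause of these shifts was not tested beyond the number of genes and UMIs each setting leaves. Of 286 list medians, 223 stayed within the spread allowed and 59 moved. A further 4, whose main median lay beyond that spread, changed sign. Sign changes of medians that lay within the spread of 0 were not counted apart, and several lists had them. The chemokine median was 3.09 with no minimum, 5.43 with at most 1 C1q UMI, 3.01 without the highest Scrublet scores, 1.19 in the 46 cells low in macrophage RNA, 0.31 in cells chosen by Wdfy4, Naaa, Ifi205 and Flt3, and 3.57 after thinning. The cytokine median was 3.21 with at least 50 UMIs, -0.16 in the 46 cells and 0.10 in cells chosen by the 4 markers. For innate sensors it was 0.44 and 0.03 in the last 2 settings, for lysosomal proteases 0.11 and 0.21. The lysosomal median was 0.47 without the highest Scrublet scores and 0.46 as a mean over cells. The hypoxia median was 0.40 and the survival median -0.35 in cells chosen by the 4 markers. With at least 4 receptor UMIs the adrenergic median was -0.14 and the MHC class I median 0.0091. After thinning, the medians were -0.029 for cDC1 surface markers, 0.69 for glycolysis and 0.031 for immediate early genes, from 1 random draw that leaves few UMIs per gene. The log2 ratio of Lyz2 was -0.29 without the highest Scrublet scores, -1.73 in the 46 cells and -1.91 in cells chosen by the 4 markers, where Ctsd was at -0.38 and Ppbp at -0.65. The choices by macrophage RNA and by the 4 markers were made after the data were seen.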
